A study of Mus musculus with 8 samples.

Results

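The 10 hepatic transporter genes were followed through liver regeneration: those for export into bile (Abcb11, Abcb4, Abcb1a, Abcc2, Abcg5 and Abcg8), for export back to blood (Abcc3 and Abcc4) and for uptake from sinusoidal blood (Slc10a1 and Slco1b2). Members were chosen by gene, through the RefSeq transcript that each array probe was designed on, and with earlier results of these data known. They were 10 of 18316 named genes, read by 14 of 41056 probes, and all 10 were among the 14142 genes that entered the tests. Total liver RNA was measured on 8 Agilent 1-colour (Cy3) arrays. Each array held 1 combination of genotype (Mxcre- or Mxcre+) and hours since partial hepatectomy, surgery that removes part of the liver and sets the rest to regrow (0, 24, 36 or 48 h). All 8 groups came from 129/SV/B6 mice with irradiation plus transplanted bone marrow 2 months earlier and poly(IC) 1 week earlier. Mxcre- livers were the wild type and Mxcre+ livers the Survivin-deleted ones. Mx-Cre is a recombinase driven by an interferon-responsive promoter that poly(IC) switches on, known to act in liver and in blood-forming cells; in which cells of these livers deletion took place was not tested. The labels give no age, leave the sex as male or female for every sample, and do not say whether 1 animal or a pool was used, nor the genotype of the donor marrow.

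Bile is formed when hepatocytes take bile acids and organic anions from blood at the sinusoidal membrane and pump them, with phospholipid and cholesterol, across the canalicular membrane. Slc10a1 (NTCP) takes up conjugated bile acids with sodium and Slco1b2 (OATP1B2) takes up organic anions without it. Abcb11 (BSEP) is the bile salt pump, Abcb4 (MDR2) a phosphatidylcholine floppase, Abcg5 and Abcg8 the obligate partners of the sterol exporter, Abcc2 (MRP2) a pump for bilirubin and other conjugates, and Abcb1a a multidrug pump. Abcc3 and Abcc4 return conjugates and bile acids to blood. The bile acid receptor FXR, encoded by Nr1h4, is known to activate Abcb11 and Abcb4, and hepatic uptake carriers are known to be lowered during cholestasis and inflammation.

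The upstream sequences of the genes on which the results turn are shown because they carry the arrangement of the Abcg5 and Abcg8 starts, and because nuclear receptors bind variants of the hexamer AGGTCA, which was searched for on both strands and is in capitals. They are 5′ to 3′ on the strand of the gene, from RefSeq on build GRCm38.p6, and end at the base before the annotated start. The stretch between the divergent starts of Abcg5 (minus strand) and Abcg8 (plus strand), which lie 110 bases apart, is chr17:84683012-84683120, shown on the plus strand. The others are chr5:8893471-8893720 (plus) for Abcb4, chr12:80968706-80968955 (minus) for the outer of 2 annotated starts of Slc10a1, chr6:141629268-141629517 (plus) for Slco1b2 and chr2:69342617-69342866 (minus) for Abcb11.
Abcg5-Abcg8: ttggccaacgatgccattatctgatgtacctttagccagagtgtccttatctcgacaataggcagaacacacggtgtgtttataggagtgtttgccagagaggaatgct
Abcb4: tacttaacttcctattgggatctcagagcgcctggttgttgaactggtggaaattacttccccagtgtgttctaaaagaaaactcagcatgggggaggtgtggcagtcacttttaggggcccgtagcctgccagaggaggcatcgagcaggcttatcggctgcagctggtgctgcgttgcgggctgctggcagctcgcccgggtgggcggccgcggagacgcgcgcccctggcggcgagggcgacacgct
Slc10a1: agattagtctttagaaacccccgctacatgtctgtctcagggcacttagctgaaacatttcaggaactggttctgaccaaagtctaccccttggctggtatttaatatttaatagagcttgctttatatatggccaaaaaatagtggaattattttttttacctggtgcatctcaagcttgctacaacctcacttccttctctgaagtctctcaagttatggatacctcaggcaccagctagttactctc
Slco1b2: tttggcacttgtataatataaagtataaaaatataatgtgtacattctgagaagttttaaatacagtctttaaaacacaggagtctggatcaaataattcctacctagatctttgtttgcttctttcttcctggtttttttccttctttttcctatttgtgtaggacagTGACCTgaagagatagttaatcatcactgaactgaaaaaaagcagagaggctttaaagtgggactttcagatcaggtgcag
Abcb11: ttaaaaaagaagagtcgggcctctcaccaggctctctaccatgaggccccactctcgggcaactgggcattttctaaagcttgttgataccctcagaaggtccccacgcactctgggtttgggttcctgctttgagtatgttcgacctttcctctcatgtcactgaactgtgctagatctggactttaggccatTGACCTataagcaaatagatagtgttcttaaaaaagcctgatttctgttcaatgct
Of the 10 genes, 9 had an entry in the sequence table, with 12 windows of 250 bases. The hexamer was in 4 of the 12 windows, those of Abcb11, Abcc2, Slco1b2 and the inner start of Slc10a1, and in 14.0% of all 32851 windows. The inverted repeat AGGTCANTGACCT, the classical FXR element, was in 0 of the 12 windows and in 0.00609% of all. These are matches of letters and say nothing of binding. By gene order, Abcg5 and Abcg8 are neighbours, and Abcb1a, Abcb1b and Abcb4 follow one another on chromosome 5.

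Levels are log2 of an array's processed intensity minus the 75th percentile of that array, so 0 is the 75th percentile and a step of 1 is a doubling; levels of different probes are not compared. The share of spots well above background was 60.2% to 66.0% per array, and no spot was saturated. With 1 array per genotype and time there were no replicates. Changes over time were therefore fitted with limma over both genotypes (time and genotype as terms, 3 residual degrees of freedom), each ± being the standard error, and p-values were adjusted by Benjamini-Hochberg over all 14142 genes. Such a p measures how alike the 2 genotypes moved, not the spread between livers. The Birc5 level, which encodes Survivin, was between -0.48 and 5.10 on the Mxcre- arrays and between -3.42 and -1.14 on the Mxcre+ arrays, and lower in Mxcre+ at each time. The mean level of 4 Y-linked genes was between -6.57 and -6.04 on both 0 h arrays and the Mxcre+ arrays of 36 and 48 h, and between -1.49 and -0.69 on the other 4. Xist, a transcript of female cells, was at 5.16 to 5.55 on the former arrays and 2.38 to 4.44 on the latter. The Y-linked level thus differed between times and genotypes. Whether the sex of the mice or the donor marrow lay behind it was not tested. Both 0 h arrays had a low Y-linked mean and both 24 h arrays a high one. On those arrays alone, a change from 0 to 24 h cannot be told apart from the Y-linked difference. Where the mean Y-linked level was added to the fit as a covariate, its slope came mainly from the 36 and 48 h pairs. In those pairs it went with genotype, so the adjusted values do not separate the Y-linked level from genotype. The 0 and 24 h arrays shared slide 1 and the 36 and 48 h arrays slide 2, so a change from 0 h to 36 or 48 h cannot be told apart from the slide. The 10 hepatocyte markers were above background throughout, with a summed level (log2 of the added signals) of 12.18 to 12.49.

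After hepatectomy the phospholipid exporter Abcb4 rose while the bile acid carrier Slc10a1 and the sterol exporter subunit Abcg8 fell, and at 48 h Slco1b2 had also fallen; the bile salt pump Abcb11 and the conjugate pump Abcc2 did not pass the test at any time. At 24 h, 2 of 10 genes were called lower and 1 higher, where 5.09% of all tested genes were called lower and 4.59% higher. At 36 h, 0 were called lower and 1 higher, against 8.15% and 8.1% of all genes. At 48 h, 3 were called lower and 1 higher, against 9.34% and 8.27%. The median change of the 10 genes was -0.43 at 24 h, -0.45 at 36 h and -0.36 at 48 h, beside -0.02, -0.05 and -0.07 over all genes, and 7, 8 and 9 of the 10 had a negative change. The median size of change, whatever its sign, was 1.04, 0.72 and 0.54 in the 10 genes and 0.33, 0.41 and 0.40 over all genes. Because the genes were chosen with earlier results of these data known, these comparisons with all genes are descriptions and not independent support. In whole liver, fewer cells of a type and less RNA per cell cannot be told apart.

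**Figure D1:**
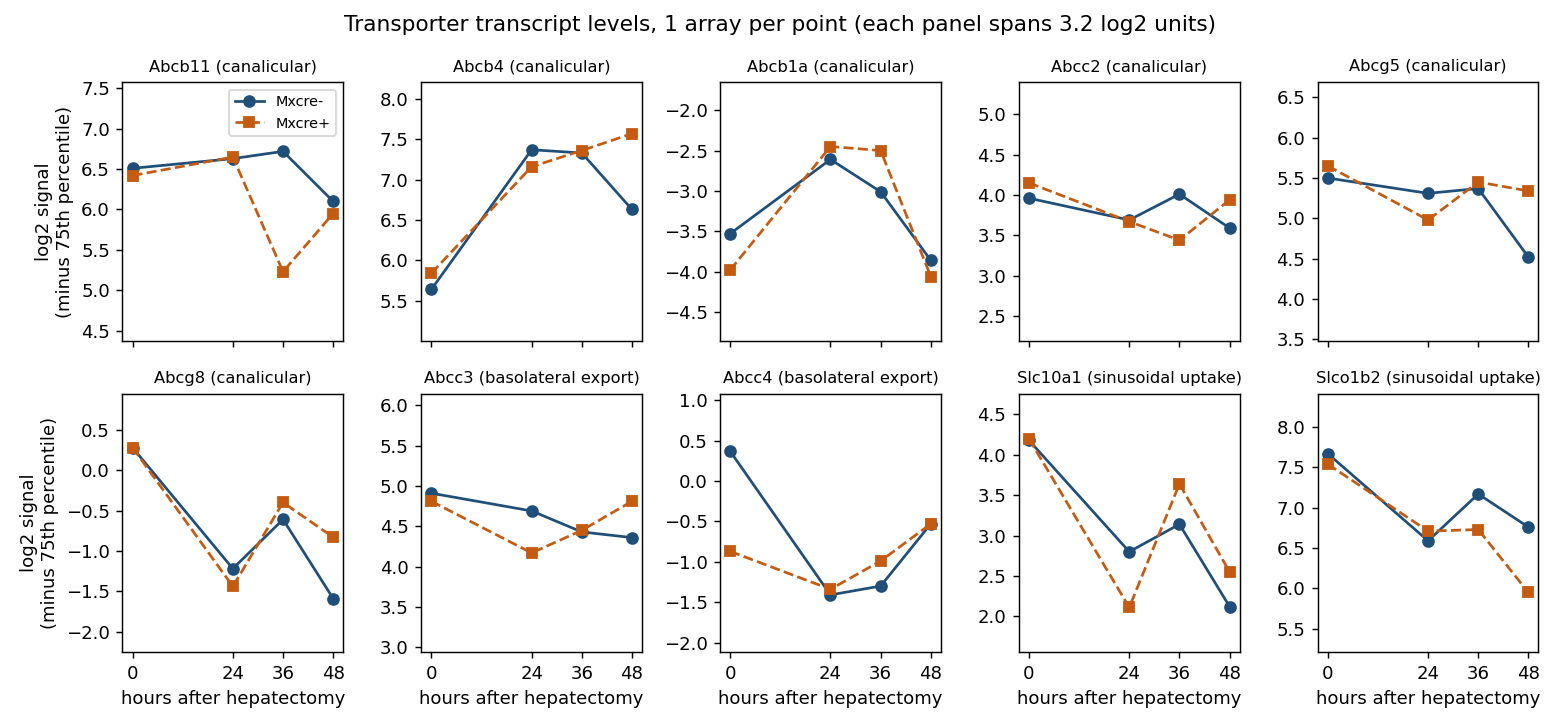
Level of each transporter (y axis, log2 signal minus the array's 75th percentile; each panel spans the same width) against hours after hepatectomy (x axis), with 1 array per point, Mxcre- as circles and Mxcre+ as squares. Abcb4 lay at 5.64 and 5.84 at 0 h and at 6.63 or above on every later array, and Slc10a1 lay at 4.18 and 4.20 at 0 h and at 3.64 or below later.

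Among the canalicular exporters, Abcb4 had Mxcre- levels of 5.64, 7.37, 7.33 and 6.63 at 0, 24, 36 and 48 h and Mxcre+ levels of 5.84, 7.16, 7.36 and 7.57. All 6 later arrays were above both 0 h arrays. The rise was 1.52 ± 0.30 at 24 h (2.88-fold, limma adjusted p = 0.0448), 1.60 ± 0.30 at 36 h (3.03-fold, adjusted p = 0.0340) and 1.35 ± 0.30 at 48 h (2.55-fold, adjusted p = 0.0424). Its second probe rose by 1.69 ± 0.31, 1.64 ± 0.31 and 1.66 ± 0.31 at the same times, with limma adjusted p of 0.0475, 0.0422 and 0.0368 when every probe was tested singly. With the mean Y-linked level as a covariate, the change of Abcb4 was 2.03, 1.82 and 1.61 at 24, 36 and 48 h, and limma's adjusted p became 0.144, 0.0550 and 0.0650.

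Abcg8 had Mxcre- levels of 0.28, -1.22, -0.61 and -1.59 at 0, 24, 36 and 48 h and Mxcre+ levels of 0.28, -1.44, -0.40 and -0.83. Every later array was below both 0 h arrays, with the 36 h pair highest among them. Abcg8 fell by 1.61 ± 0.25 at 24 h (3.05-fold, limma adjusted p = 0.0316) and by 1.49 ± 0.25 at 48 h (2.81-fold, adjusted p = 0.0257), and its change at 36 h was -0.79 ± 0.25 (adjusted p = 0.0947). Its second probe showed changes of -0.55 ± 0.25, -0.33 ± 0.25 and -0.97 ± 0.25, which did not pass (adjusted p of 0.226, 0.388 and 0.0666 over single probes), so the probes differed in size by more than 1.5 times. With the Y-linked covariate the change was -1.02 at 24 h and -1.20 at 48 h, with limma adjusted p of 0.184 and 0.0539.

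Abcg5, which shares the divergent promoter region shown above with Abcg8, had Mxcre- levels of 5.50, 5.31, 5.37 and 4.52 at 0, 24, 36 and 48 h and Mxcre+ levels of 5.65, 4.98, 5.45 and 5.34. Its values after surgery were all below those at 0 h, by less than for Abcg8. The changes were -0.43 ± 0.28, -0.17 ± 0.28 and -0.65 ± 0.28, and none passed (limma adjusted p of 0.368, 0.690 and 0.173). Whether Abcg5 and Abcg8 changed by different amounts was not tested.

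The bile salt pump Abcb11 had Mxcre- levels of 6.51, 6.63, 6.72 and 6.10 at 0, 24, 36 and 48 h and Mxcre+ levels of 6.42, 6.65, 5.23 and 5.95. The Mxcre+ array at 36 h stood below the rest. The change was 0.18 at 24 h (95% interval -0.88 to 1.24), -0.49 at 36 h (-1.55 to 0.57) and -0.44 ± 0.41 at 48 h (-1.5 to 0.62, limma adjusted p = 0.473). The intervals at 24, 36 and 48 h all reach past a 2-fold change. Without the Mxcre+ array at 36 h, the 36 h change of Abcb11 was 0.22.

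Abcc2 had Mxcre- levels of 3.96, 3.69, 4.01 and 3.59 at 0, 24, 36 and 48 h and Mxcre+ levels of 4.15, 3.67, 3.44 and 3.94. Both 0 h arrays lay above the 24 and 48 h arrays and overlapped the 36 h pair. The changes were -0.37 ± 0.25, -0.33 ± 0.25 and -0.28 ± 0.25 (limma adjusted p of 0.375, 0.373 and 0.446). Abcb1a, above background on all 8 arrays, had Mxcre- levels of -3.53, -2.61, -3.01 and -3.86 at 0, 24, 36 and 48 h and Mxcre+ levels of -3.98, -2.45, -2.50 and -4.06. The 24 and 36 h arrays were above the 0 h arrays, and the 48 h arrays overlapped them. Its changes of 1.23 ± 0.26, 1.00 ± 0.26 and -0.20 ± 0.26 did not pass (limma adjusted p of 0.0519, 0.0607 and 0.593), nor did its difference of -1.21 ± 0.26 between 48 and 36 h, 2 times on 1 slide (adjusted p = 0.334).

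**Figure D2:**
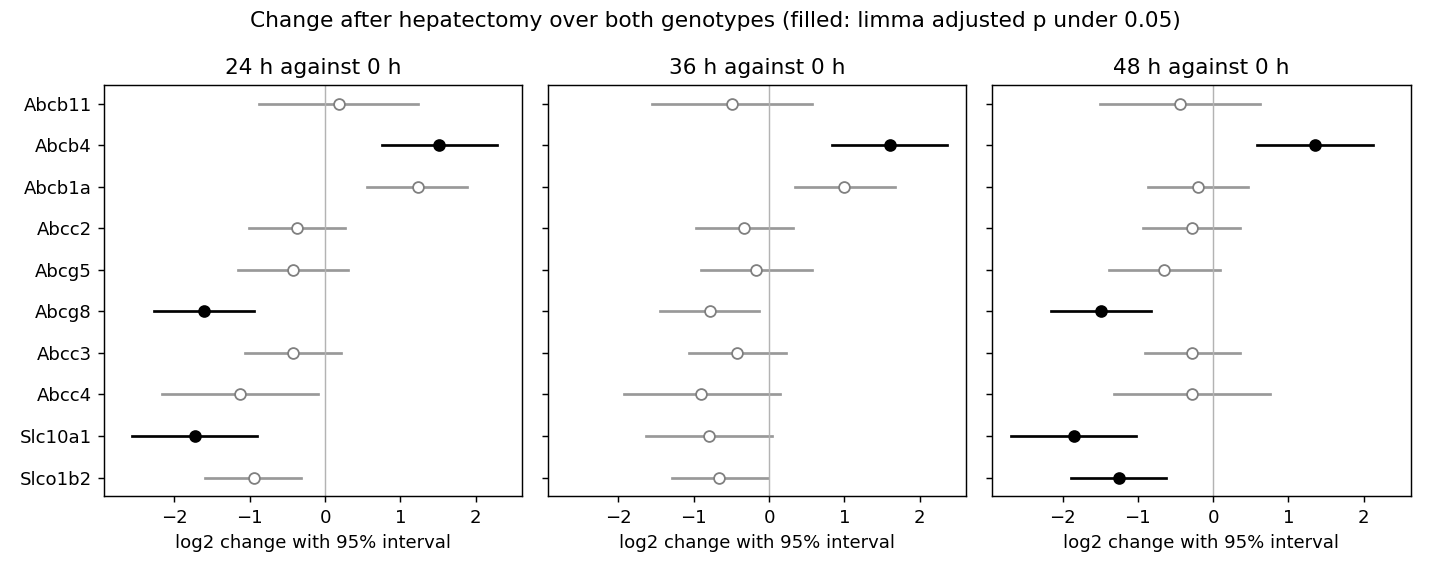
Log2 change of each transporter at 24, 36 and 48 h against 0 h (x axis) from the limma fit over both genotypes, with 95% intervals as lines; filled points passed an adjusted p of 0.05. Filled points are Abcb4 at all 3 times, Slc10a1 and Abcg8 at 24 and 48 h, and Slco1b2 at 48 h.

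Of the uptake carriers, Slc10a1 had Mxcre- levels of 4.18, 2.80, 3.14 and 2.12 at 0, 24, 36 and 48 h and Mxcre+ levels of 4.20, 2.11, 3.64 and 2.55. All 6 later arrays were below 0 h, and the 36 h pair lay above the 24 and 48 h pairs. Slc10a1 fell by 1.73 ± 0.32 at 24 h (3.32-fold, limma adjusted p = 0.0413) and by 1.85 ± 0.32 at 48 h (3.61-fold, adjusted p = 0.0268). Its change at 36 h was -0.80 ± 0.32 (adjusted p = 0.144), and its difference between 48 and 36 h was -1.05 ± 0.32 (adjusted p = 0.489). With the Y-linked covariate the fold decrease of Slc10a1 at 24 and 48 h was 2.05 and 2.84, with limma adjusted p of 0.259 and 0.0633.

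Slco1b2 had Mxcre- levels of 7.67, 6.59, 7.17 and 6.76 at 0, 24, 36 and 48 h and Mxcre+ levels of 7.54, 6.71, 6.73 and 5.95. Both 0 h arrays were above all later ones. It fell by 1.25 ± 0.25 at 48 h (2.38-fold, limma adjusted p = 0.0341), while the changes of -0.95 ± 0.25 at 24 h and -0.66 ± 0.25 at 36 h did not pass (adjusted p of 0.0761 and 0.126). With the Y-linked covariate its 48 h change was -1.55 (limma adjusted p = 0.0389). That covariate cannot separate the Y-linked level from genotype, so this call is no check on the Y-linked difference.

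Of the exporters to blood, Abcc3 had Mxcre- levels of 4.91, 4.69, 4.43 and 4.36 at 0, 24, 36 and 48 h and Mxcre+ levels of 4.81, 4.17, 4.45 and 4.81. Its changes of -0.43 ± 0.25, -0.42 ± 0.25 and -0.28 ± 0.25 did not pass (limma adjusted p of 0.305, 0.264 and 0.454), and those of its second probe were -0.25, -0.19 and 0.13. Abcc4 had Mxcre- levels of 0.37, -1.41, -1.30 and -0.53 at 0, 24, 36 and 48 h and Mxcre+ levels of -0.87, -1.34, -0.99 and -0.53. The Mxcre- array at 0 h was the highest, and the Mxcre+ array at 0 h lay below both 48 h arrays. Its changes of -1.13 ± 0.40, -0.90 ± 0.40 and -0.28 ± 0.40 did not pass (limma adjusted p of 0.139, 0.173 and 0.638). The second Abcc4 probe was well above background on 1 of 8 arrays, Mxcre- at 0 h.

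Between 48 and 36 h 0 of the 10 genes passed, against 0.106% of all genes, and in the joint test of any change over the 4 times 0 of 10 passed, against 9.93% (limma adjusted p of 0.0506 for Abcg8, 0.0551 for Abcb1a, 0.0584 for Slc10a1 and 0.0656 for Abcb4). Each call at a single time rested on few arrays. Without any 1 of the 0, 24 or 36 h arrays, 0 of the 10 genes were called at 24 h or at 36 h; without a 48 h array, 2 and 1 were. At 48 h, 0 were called without either 0 h array or the Mxcre- 48 h array, and 1 without any other single array. Within slide 1 alone, with 1 residual degree of freedom, 0 genes were called at 24 h. The sizes of the 24 h changes could not differ there, because they rest on the slide 1 arrays in both fits. With the Y-linked covariate 0, 0 and 1 of the 10 genes were called at 24, 36 and 48 h. Under normexp background correction 0 were called at any of the 3 times.

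Other genes of bile transport, from lists of transporters, regulators and proteins that anchor or traffic them, were fitted in the same way. Of 19 transporters tested of 22 listed, 5, 4 and 4 were called lower at 24, 36 and 48 h and 1, 2 and 1 higher, with medians of 0.02, -0.02 and -0.02. Over all tested genes, 5.09%, 8.15% and 9.34% were called lower and 4.59%, 8.1% and 8.27% higher. Slc51b, the beta subunit of the basolateral bile acid exporter OST, had Mxcre- levels of -2.25, 1.70, 0.58 and -0.11 at 0, 24, 36 and 48 h and Mxcre+ levels of -2.40, 1.21, 1.81 and 1.07. All later arrays were above 0 h, and the rise was 3.78 ± 0.51 at 24 h (13.7-fold, limma adjusted p = 0.0259), 3.51 ± 0.51 at 36 h (adjusted p = 0.0246) and 2.80 ± 0.51 at 48 h (adjusted p = 0.0291). Its partner Slc51a was not well above background on enough arrays to enter the test. Abcb1b, a second multidrug pump, rose by 1.60 ± 0.33 at 36 h (limma adjusted p = 0.0414). Among those that fell, the cation extruder Slc47a1 fell by 2.06 ± 0.12, 1.53 ± 0.12 and 1.49 ± 0.12 at the 3 times, the nucleoside carrier Slc29a1 by 1.59 ± 0.13, 1.39 ± 0.13 and 1.78 ± 0.13, and Abcc6 by 2.04 ± 0.38, 2.20 ± 0.38 and 2.20 ± 0.38, with limma adjusted p between 0.00588 and 0.0418. Slc22a7, an organic anion carrier, fell by 1.83 ± 0.37 at 24 h (limma adjusted p = 0.0485).

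Of 19 regulators tested of 20 listed, 3, 3 and 2 were called lower at 24, 36 and 48 h and 0 higher, with medians of -0.23, -0.29 and -0.44. The shares over all tested genes were 5.09%, 8.15% and 9.34% lower and 4.59%, 8.1% and 8.27% higher. Nr1h4 had Mxcre- levels of 4.79, 3.34, 3.61 and 3.63 at 0, 24, 36 and 48 h and Mxcre+ levels of 4.57, 3.26, 3.42 and 3.02. It fell by 1.38 ± 0.17, 1.16 ± 0.17 and 1.35 ± 0.17 (limma adjusted p of 0.0240, 0.0243 and 0.0151). Cebpa, a hepatocyte differentiation factor, fell by 1.25 ± 0.20, 1.12 ± 0.20 and 1.50 ± 0.20 (adjusted p of 0.0322, 0.0327 and 0.0173), Ppara, the fatty acid receptor, by 1.40 ± 0.24 at 24 h (adjusted p = 0.0357) and Esrra by 0.57 ± 0.13 at 36 h (adjusted p = 0.0497). Of 15 anchoring and trafficking genes tested of 17 listed, 2, 3 and 3 were called higher and 0 lower, with medians of 0.26, 0.33 and 0.25. The tight junction gene Cgn rose by 1.14 ± 0.16, 0.85 ± 0.16 and 1.12 ± 0.16 at the 3 times, and Msn, which links membrane proteins to actin, by 0.97 ± 0.20 at 36 h and 0.95 ± 0.20 at 48 h (limma adjusted p between 0.0195 and 0.0402).

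Of all 14142 genes, 1369, 2298 and 2490 were called at 24, 36 and 48 h. Over the 3 lists together, with 19 transporters, 19 regulators and 15 anchoring genes tested, 11, 12 and 10 genes were called. With the Y-linked covariate, 0, 8 and 9 were called. Nr1h4, Slc51b, Slc47a1, Slc29a1 and Abcc6 were called there at 36 and 48 h. Cebpa and Cgn lost their calls at all 3 times (limma adjusted p between 0.0564 and 0.206). Calls kept or lost with that covariate do not separate the Y-linked level from genotype. Within slide 1 alone 0 were called at 24 h, under normexp 0, 0 and 1, and with no filter on dim genes 6, 4 and 8. At 24 and at 36 h, 1 was called without the Mxcre- 0 h array, 0 without the Mxcre+ 0 h array or any 24 or 36 h array, and 5 without either 48 h array. At 48 h, 2 and 1 were called without the Mxcre- or Mxcre+ 0 h array, 0 and 2 without the Mxcre- or Mxcre+ 48 h array, and 7 to 9 without another. These counts over the lists were added after the data were seen.

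**Figure D3:**
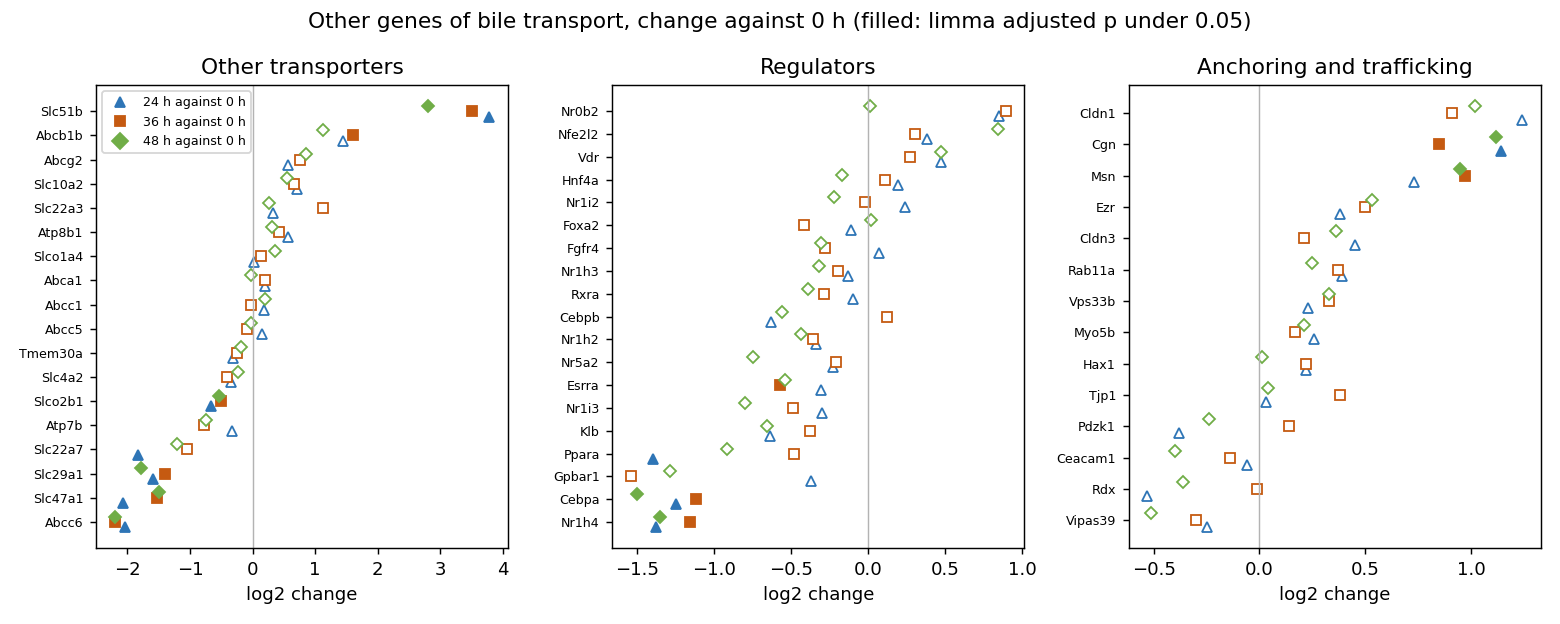
Log2 change against 0 h (x axis) of the other transporters, regulators and anchoring genes that were tested (1 row each, 2 of them not shown) at 24 h (triangles), 36 h (squares) and 48 h (diamonds); filled symbols passed a limma adjusted p of 0.05. Slc51b stands farthest right, at 3.78 at 24 h, and Nr1h4 and Cebpa are filled at all 3 times on the left.

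Markers of other cells moved over the same times. For comparison, 5.09%, 8.15% and 9.34% of all tested genes were called lower at 24, 36 and 48 h and 4.59%, 8.1% and 8.27% higher. The summed level of 8 bile duct markers was 2.14 and 2.72 at 0 h and 3.90 to 5.46 later, with 3 of 8 called higher at each time. Spp1, the brightest of them on each array, weighs most in that sum, at 1.11 and 1.96 at 0 h and 3.04 to 5.26 later. Of the 8 markers, 8, 6 and 8 had a positive change at 24, 36 and 48 h. Stellate cell markers were called higher in 1, 3 and 2 of 7 genes and T and NK cell markers lower in 2, 4 and 3 of 8, with summed levels of 3.77 to 4.65 and 0.26 to 1.47. B cell markers were called lower in 0, 3 and 2 of 4, with sums of -1.64 to 0.02. Neutrophil markers were called in 0 of 8 at each time, with sums of 3.04 to 6.51, and macrophage markers in 0 of 6, with sums of 4.83 to 5.93. Endothelial markers were called lower in 1 of 6 at each time (sums of 4.10 to 4.86), and erythroid markers higher in 1 of 4 at 24 h (sums of 5.50 to 7.02). Of the hepatocyte markers, 1 of 10 was called, lower at 48 h. The part of other cells in the transporter changes was not tested.

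Survivin deletion was compared next, as Mxcre+ minus Mxcre-. Averaged over the 4 times, 0 of the 10 genes passed, as did 0% of all 14142 genes with limma, of which 932 had an unadjusted p under 0.05. The largest mean differences were -0.43 for Abcb11 (95% interval -1.18 to 0.32), -0.32 for Slco1b2 (-0.77 to 0.13) and 0.24 for Abcb4 (-0.30 to 0.78). Each rested on few pairs. Without the 36 h pair the Abcb11 difference was -0.077, and without the 48 h pair those of Slco1b2 and Abcb4 were -0.153 and 0.006. With the Y-linked covariate the 3 values were -0.099, 0 and -0.034. Within times, that covariate differed mainly at 36 h (-1.49 in Mxcre- and -6.4 in Mxcre+) and 48 h (-0.69 and -6.57). It went with genotype there, so these 3 values cannot tell the Y-linked level from genotype. For Slc10a1 the difference was 0.06 (-0.53 to 0.65), for Abcg8 0.19 (-0.28 to 0.65) and for Abcg5 0.18 (-0.33 to 0.70). For Abcc2 it was -0.01 (-0.47 to 0.44), for Abcc3 -0.04 (-0.49 to 0.41), for Abcc4 -0.21 (-0.94 to 0.52) and for Abcb1a 0.01 (-0.46 to 0.48). The intervals leave room for a difference past 2-fold for Abcb11 and for up to nearly 2-fold for the other 9.

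At single times there was 1 array per genotype and no test, and a difference past 2-fold was used as a size rule. At 0 h 1 of 10 genes was past it (3.77% of all genes above background in both), at 24 h 0 (1.97%), at 36 h 1 (4.58%) and at 48 h 0 (5.67%). At 0 h it was Abcc4, at 0.37 in Mxcre- and -0.87 in Mxcre+ (2.35-fold lower in Mxcre+); under normexp the difference was -0.65, within 2-fold. The 8 neutrophil markers had a summed level of 6.07 and 3.04 on the same arrays, with 7 of 7 measured on both lower in Mxcre+, but 6.14 and 6.51 on the Mxcre+ arrays at 36 and 48 h, where Abcc4 stood at -0.99 and -0.53. Their part in the Abcc4 difference was not tested. At 36 h it was Abcb11, at 6.72 in Mxcre- and 5.23 in Mxcre+ (2.82-fold lower in Mxcre+). On those arrays the Y-linked mean was -1.49 and -6.40, the neutrophil sum 4.99 and 6.14, and the hepatocyte sum 12.34 and 12.27, and their part in the Abcb11 difference was not tested.

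At 48 h the biliary lipid exporters were all at a higher value in Mxcre+, by 0.94 for Abcb4, 0.82 for Abcg5 and 0.75 for Abcg8, and Slco1b2 at a lower one, by 0.81, each under 2-fold. Scaling moved some of these past 2-fold: Abcb4 was 1.04 higher with quantile scaling and with the deposited matrix (0.526 under normexp), and Slco1b2 differed by -1.22 under normexp. The second probes gave 3.54 and 4.43 for Abcb4 and -2.95 and -2.12 for Abcg8 (Mxcre- then Mxcre+). The median difference of the 10 genes was 0.39 at 48 h, with 3 of 10 negative, beside -0.03 over all genes, and at 0, 24 and 36 h it was -0.05, -0.12 and 0.06. The hepatocyte sum was 12.46 in Mxcre- and 12.18 in Mxcre+ at 48 h, the neutrophil sum 4.66 and 6.51, and the Y-linked mean -0.69 and -6.57, and their part in these differences was not tested. When the genotype difference after surgery was tested against that at 0 h (limma, 2 residual degrees of freedom), 0 of 10 genes passed, against 0.17% of all. Abcc4 had the largest such difference, 1.36 ± 0.24 (95% interval 0.70 to 2.02, limma adjusted p = 0.369), which rests on 1 pair of arrays at 0 h. The other 9 had adjusted p between 0.895 and 0.995.

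**Figure D4:**
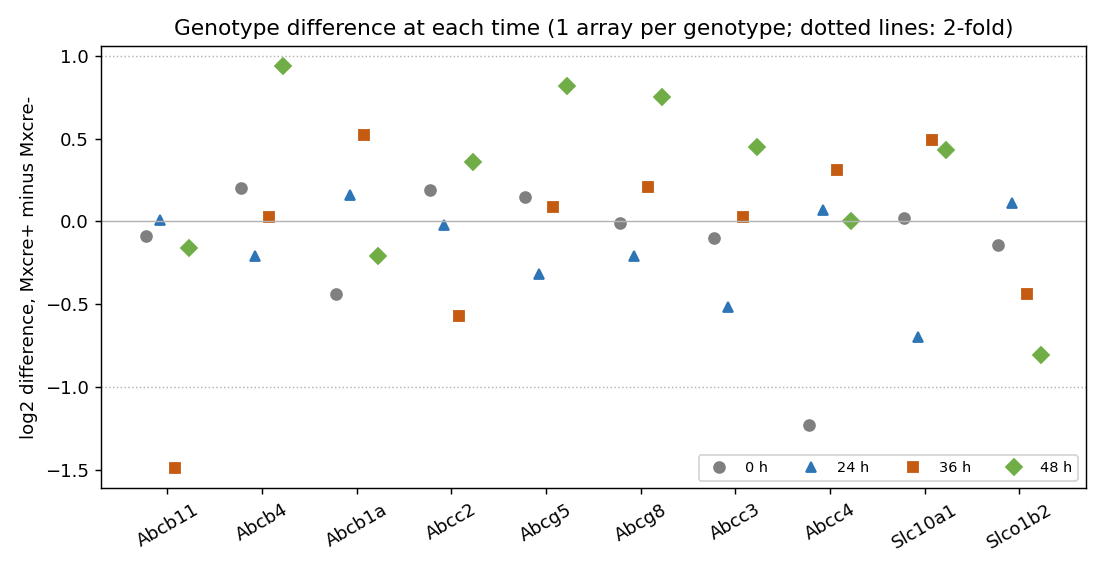
Log2 difference between genotypes (y axis, Mxcre+ minus Mxcre-) for each transporter (x axis) at 0, 24, 36 and 48 h, with 1 array per genotype behind each point and dotted lines at a 2-fold difference. Points past the lines are Abcc4 at 0 h (-1.23) and Abcb11 at 36 h (-1.49).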

How the data were processed

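RNA was labelled with Cy3 and read on 8 arrays. The deposited scanner files hold intensity: per the file headers, Feature Extraction 10.7.3.1 (10.7 in the submitters' processing notes) subtracted background and detrended each array. The deposited matrix holds log2 values that follow the same arrays (r of at least 0.999 across probes, which are not independent) with 1 shared median of 5.51; its scaling is not given in the sources used here, and it served as an alternative. Times are those of the titles; a protocol text giving 1 week was not used.

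Control spots were removed, and 118 of 41174 probes, with no spot free of outlier marks on an array, were left out. Accessions found in RefSeq named 26839 probes. Signals were log2-transformed and set to each array's 75th percentile; the brightest probe stood for a gene, and genes well above background on at least 2 arrays were tested (limma 3.58.1, R 4.3.3). Named list genes were up to 3 per direction and comparison with the largest called change, or, where none passed, 2 by size among genes above background on all 8 arrays; 2 of these are not reported here. Alternatives were quantile scaling, the matrix, normexp (offset 50, on median signals, as the files used hold no mean signal), filters, probe rules, an intensity trend, a Y-linked covariate, 1 slide, and each array left out. Members and lists were chosen with earlier results of these data known. The number of arrays limits the precision. Fits were tested on simulated data.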

Additional observations from a re-analysis of the deposited data

Results flagged for a closer look

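Of the 10 genes, 3 moved in opposite directions in the 2 genotypes at a time. With 1 array per genotype and time, none of these differences was tested at that time. The share of all genes that did so is not given, so the count says nothing of these genes as a set. Abcb11 changed from 0 to 36 h by 0.21 in Mxcre- and -1.19 in Mxcre+, a difference of -1.40. Abcc2 changed over the same span by 0.05 and -0.71, a difference of -0.76, and its Mxcre- value was thus almost unchanged. Abcc4 changed from 0 to 48 h by -0.90 in Mxcre- and 0.33 in Mxcre+, a difference of 1.23. At 48 h it stood at -0.53 in both genotypes, so this difference came from the 0 h pair (0.37 in Mxcre- and -0.87 in Mxcre+).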

How the results depend on the processing

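With 1 array per genotype and time, there were no replicates to pair. The fit itself compares genotypes within times and times within genotypes. The genotype difference called 0 of the 10 genes without any 1 of the 4 pairs. Every called change kept its direction under each alternative that gave a value (17 or 18 per change), but each lost its call under some. Many of these could not alter the change itself, so a kept direction there carries no support. They are the filters, single probes, the intensity trend, 1 slide, and leaving out an array of a time outside the comparison. Against 3, 1 and 4 of the 10 genes called at 24, 36 and 48 h, the Y-linked covariate left 0, 0 and 1, normexp 0, 0 and 0, and testing genes with no filter on dim ones 0, 0 and 2. Slide 1 alone left 0 at 24 h. Genes above background on all arrays gave 5 at 24 h and 2 at 36 h, an adjusted p of 0.1 gave 5 and 3, and quantile scaling or the deposited matrix 2 at 36 h. The joint test over times called 0; it called 4 with genes above background on all arrays, 5 at an adjusted p of 0.1, 3 with an intensity trend, and 1 with quantile scaling or the matrix. Leaving out 1 array gave 0 to 2 calls at 24 h, 0 to 1 at 36 h and 0 to 1 at 48 h. Past 2-fold between genotypes at a time were 2, while quantile scaling and the matrix gave 3 (Abcb4 at 48 h added), normexp 5, and a 1.5-fold rule 7. Of the normexp 5, 4 fell at 36 h. There normexp put 2310 of 12736 genes past 2-fold, against 583 in the main setting. Of the 7 past 1.5-fold, 4 fell at 48 h, where 2003 of 12902 genes were past it. The causes were not tested.

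Over all genes, 1369, 2298 and 2490 were called at 24, 36 and 48 h. The Y-linked covariate left 1, 984 and 1190, normexp 47, 42 and 174, and no filter 573, 938 and 1553; slide 1 alone left 0 at 24 h. The intensity trend gave 2162 at 24 h, and an adjusted p of 0.1 gave 2936, 4351 and 4267. Leaving out 1 array gave 0 to 514, 0 to 903 and 86 to 1470. Higher genes were 47.4%, 49.8% and 46.9% of those called, and 68.1%, 81.0% and 79.9% under normexp. The joint test called 1405, against 201, 61 and 344 with the covariate, normexp and no filter, 3318 at an adjusted p of 0.1, and 8 to 205 without 1 array. Between 48 and 36 h 15 were called, against 0 to 59 elsewhere, and the changed genotype difference called 24, against 0 to 46.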

Other observations

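In the other bile transport genes no difference between genotypes passed limma's test, and the largest among genes above background on all 8 arrays are given as values. Averaged over times, the difference (Mxcre+ minus Mxcre-) was -0.73 ± 0.27 for Abcc6 and 0.44 ± 0.36 for Slc51b among transporters, -0.33 ± 0.11 for Foxa2 and -0.32 ± 0.15 for Nr5a2 among regulators, and 0.40 ± 0.14 for Tjp1 and 0.25 ± 0.19 for Cldn1 among anchoring genes (limma adjusted p between 0.751 and 0.792). The genotype difference after surgery less that at 0 h was -1.78 ± 0.67 for the apical bile acid carrier Slc10a2, -1.06 ± 0.41 for Slc22a7, 0.95 ± 0.27 for Cldn3, 0.51 ± 0.26 for Tjp1, 0.69 ± 0.33 for Klb and 0.45 ± 0.28 for Cebpa (adjusted p between 0.677 and 0.906). Between 48 and 36 h, Nr0b2, the FXR-induced repressor SHP, differed by -0.87 ± 0.46, Cebpb by -0.68 ± 0.24, Slc51b by -0.71 ± 0.51, Pdzk1 by -0.39 ± 0.15 and Rdx by -0.36 ± 0.15 (adjusted p between 0.535 and 0.698).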
